A study of Oryctolagus cuniculus with 9 samples.

Results

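The genes described here encode the contractile apparatus of smooth muscle and of the mural cells that wrap blood vessels: ACTA2, MYH11, LMOD1 and CNN1. They were taken by name from the deposited tables. Of the 4 named genes, 3 had a row among the 23407 gene rows (ACTA2, MYH11 and LMOD1), and CNN1, which encodes the actin-binding protein calponin, was not analysed here. RNA was sequenced from ligamentum flavum (9 libraries), an elastic ligament that joins adjacent laminae of the spine. The animals were New Zealand white rabbits, all male and 70 weeks old. By its title, the series asks what long-term mechanical stress does to gene expression in this ligament. Control (3 libraries) is the sham operation, Fused (3 libraries) the fused level and ISC (3 libraries) the level of intervertebral stress concentration. Per the labels' protocols, the operation was done at 18 weeks of age and combined removal of the supraspinal muscle at L3-4 with instrumented posterolateral fusion of L2-3 and L4-5. The same protocol text accompanies the Control libraries, which are labelled as sham. No label ties a library to an animal or states that a group's libraries are separate animals, so p-values measure only the spread between these samples. As the protocol fuses levels on either side of the resected one, Fused and ISC libraries may come from the same rabbits, which the tests of ISC against Fused, made without pairs, do not take into account.

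Smooth muscle cells and pericytes shorten when myosin thick filaments pull on thin filaments of smooth muscle actin. In vessel walls this sets the bore of arteries and the tone of small vessels. The genes of this apparatus are switched on together by serum response factor with its partner myocardin and the related MRTF proteins. ACTA2 is also made by myofibroblasts, the matrix-producing cells of scars, whereas MYH11 and LMOD1 are more restricted to mature smooth muscle. Ligamentum flavum is poor in vessels, and its main cells are fibroblasts.

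ACTA2 encodes smooth muscle alpha actin, the thin filament itself. Its row lies on chromosome 18 of the rabbit build oryCun2, from 36853676 to 36870691 on the minus strand, with 1326 exonic bases in 9 exon blocks. The deposited values are read counts scaled for library size. In the order of the replicates, ACTA2 had scaled read counts of 559, 637 and 1184 in Control, of 1333, 435.5 and 139 in Fused, and of 940.4, 155 and 461 in ISC. Fused and ISC each held a library within or above the Control range and a library far below it, so the groups overlapped. The means were 793 ± 340 (SD, n = 3) in Control, 636 ± 622 (SD, n = 3) in Fused and 519 ± 396 (SD, n = 3) in ISC.

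MYH11 encodes the smooth muscle myosin heavy chain, the motor of the thick filament and the marker most restricted to mature smooth muscle. It lies on chromosome 6 from 11019065 to 11130977, on the plus strand, with 6440 exonic bases in 42 blocks. Its scaled read counts were 924, 982 and 1632 in Control, 2098, 710.1 and 229.6 in Fused, and 1564, 156 and 412 in ISC, each in the order of the replicates. As with ACTA2, Fused replicate 1 was the highest library of all, and ISC replicate 2 and Fused replicate 3 were the lowest. The means were 1179 ± 393 (SD, n = 3) in Control, 1013 ± 970.5 (SD, n = 3) in Fused and 711 ± 750.4 (SD, n = 3) in ISC.

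LMOD1 encodes leiomodin 1, which nucleates thin filaments in smooth muscle. It lies on chromosome 16 from 69653675 to 69691985, on the plus strand, with 2710 exonic bases in 3 blocks. Its scaled read counts were 186, 124 and 127 in Control, 152, 66.4 and 26.2 in Fused, and 149, 41.8 and 49.2 in ISC, in replicate order. Replicate 1 of Fused and of ISC lay within the Control range, and the other 4 operated libraries lay below every Control library. The means were 145.5 ± 34.9 (SD, n = 3) in Control, 81.6 ± 64.3 (SD, n = 3) in Fused and 80.0 ± 59.9 (SD, n = 3) in ISC. The 24 to 197 reads behind these values make LMOD1 the least precisely counted of the 3 genes, against 127 to 1361 reads for ACTA2 and 131 to 1876 for MYH11.

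**Figure D1:**
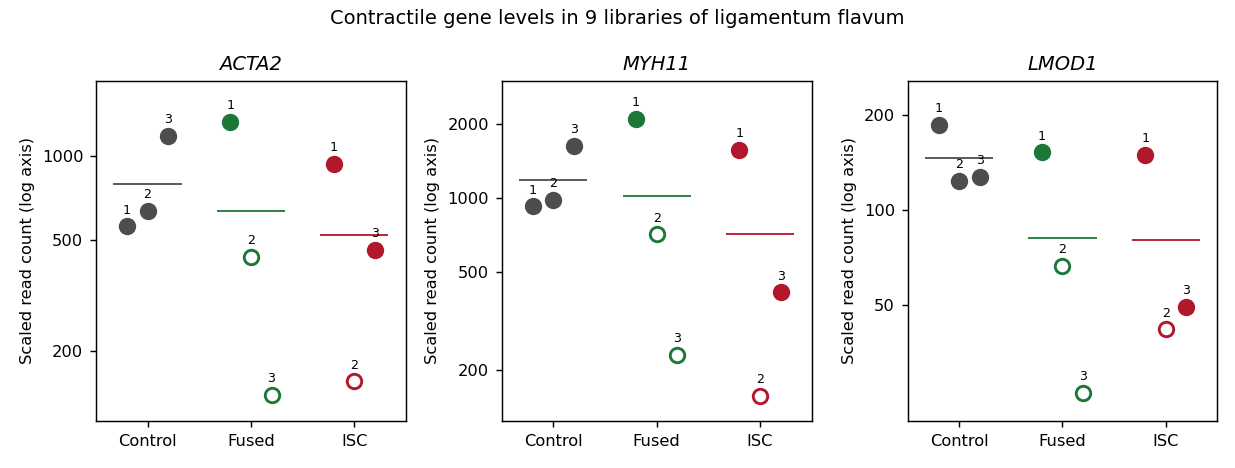
Scaled read counts of ACTA2, MYH11 and LMOD1 (log axes) in the 9 libraries, as points numbered by replicate, with each group's mean as a horizontal line; open points are the 3 libraries with 5.03% or more haemoglobin reads. Control spans the narrowest range in each panel, and Fused and ISC spread from replicate 1, within the Control range or, for ACTA2 and MYH11 in Fused, above it, to the lowest values (Fused replicate 3 and ISC replicate 2).

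No member passed the test in any comparison. The test was limma on log2(scaled count + 1) over all genes, two-sided, with Benjamini-Hochberg adjustment, and changes are on that log2 scale. Against Control, ACTA2 differed in Fused by -0.79 (95% interval -2.38 to 0.79, limma adjusted p = 0.553), MYH11 by -0.70 (-2.23 to 0.83, adjusted p = 0.590) and LMOD1 by -1.14 (-2.33 to 0.06, adjusted p = 0.243). Of all 14686 genes tested there, 6.58% were called at an adjusted p under 0.05, and the median change over all genes was 0.02. The intervals leave room for a large fall as well as for no change. In bulk tissue, fewer smooth muscle cells and less contractile RNA per cell cannot be told apart.

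The ISC libraries gave values of the same sign. Against Control, ACTA2 differed by -0.88 (95% interval -2.29 to 0.53, limma adjusted p = 0.608), MYH11 by -1.29 (-2.98 to 0.40, adjusted p = 0.535) and LMOD1 by -1.07 (-2.12 to -0.02, adjusted p = 0.425). Among the members LMOD1 alone reached an unadjusted p under 0.05 here, a level reached by 11.5% of the genes tested, while 0.0488% were called after adjustment. ISC and Fused were compared with the same 3 Control libraries, so the common sign is not a repeated observation. Against Fused, ISC differed by -0.09 for ACTA2 (-2.15 to 1.98), -0.59 for MYH11 (-2.86 to 1.69) and 0.07 for LMOD1 (-1.54 to 1.67), with adjusted p between 0.870 and 0.985 (limma) and 0.279% of all genes called.

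Counting rather than log-scale tests led to the same calls, with smaller log2 changes in Fused against Control. For ACTA2, MYH11 and LMOD1 these were -0.35, -0.25 and -0.87 in edgeR and -0.31, -0.22 and -0.84 in DESeq2. On the recovered reads, edgeR and DESeq2 called 0 of the 3 members in each comparison, and unadjusted p under 0.05 was met by 0, 1 and 0 of them in limma for Fused against Control, ISC against Control and ISC against Fused, where 22.8%, 11.5% and 10.3% of all genes met it. In the authors' deposited table, LMOD1 had q-values of 0.583 for Control and Fused and 0.743 for Control and ISC, and the q-values of ACTA2 and MYH11 were 0.941 or more. For none of the 3 genes did a pair of groups separate without overlap, which 29.3% of all genes did between Fused and Control, 18.3% between ISC and Control and 15.4% between ISC and Fused.

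The LMOD1 value rested on single libraries. Without Fused replicate 1, LMOD1 was lower in Fused than in Control by -1.75 on the log2 scale and passed the test (limma adjusted p = 0.0121). In that setting 2050 of all 14016 genes tested were called, 929 of them lower. Fused replicates 2 and 3, which remained, had 5.68% and 6.45% haemoglobin reads. Without Fused replicate 3 the LMOD1 change was -0.50, and the changes of ACTA2 and MYH11 were 0.023 and 0.10. Over the libraries left out in turn, the Fused change of ACTA2 ran from -1.60 to 0.023 and that of MYH11 from -1.49 to 0.10.

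The members' lowest values came from libraries with much bone marrow or blood RNA. In the order of the replicates, the share of reads in haemoglobin rows was 0.269%, 0.114% and 0.249% for Control, 1.58%, 5.68% and 6.45% for Fused, and 0.505%, 5.03% and 0.429% for ISC. Of 14 haemoglobin gene names, 5 had a row, among them HBB2, HBQ1 and HBZ. HBA, HBA1 and HBA2 had none, so the share does not count them. All 11 erythroid marker genes and 11 of 12 granulocyte marker genes had a row. The summed scaled count of the erythroid list ran from 64.7 to 199.9 in Control, from 1429.5 to 8608 in Fused and from 453 to 10248 in ISC. The granulocyte list ran from 101 to 346 in Control, 2362 to 25215 in Fused and 504 to 18057 in ISC, and no erythroid or granulocyte marker was at 0 throughout a group.

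The 3 libraries rich in haemoglobin reads (Fused replicates 2 and 3 and ISC replicate 2) included the lowest 2 libraries of each member. ISC replicate 3 broke the pattern: with 0.429% haemoglobin reads it had only 49.2 for LMOD1 and 412 for MYH11, below Fused replicate 2 with 5.68%, which had 66.4 and 710.1. Fused replicate 1, with 1.58% haemoglobin reads, held the highest ACTA2 and MYH11 values of all libraries. Whether marrow RNA sets the members' levels was not tested.

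**Figure D2:**
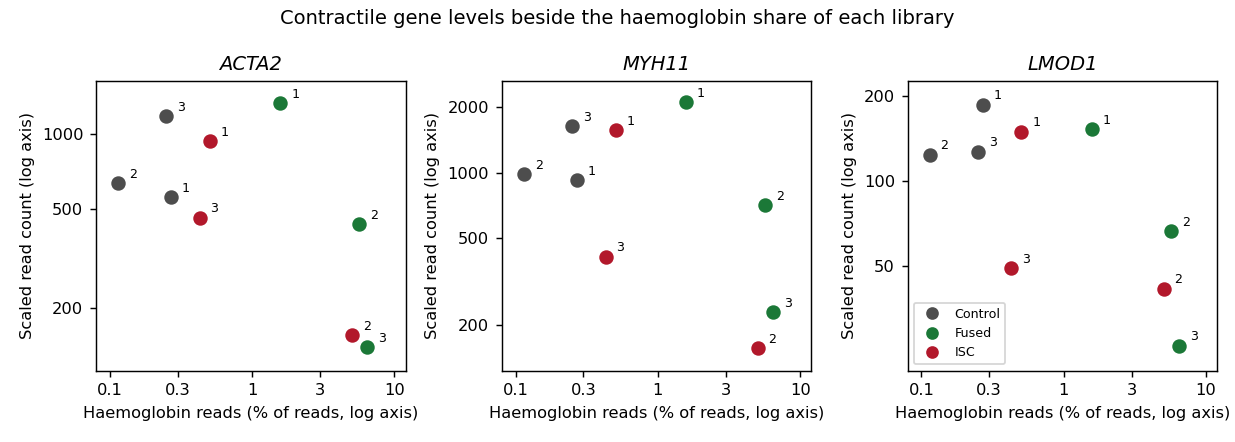
Scaled read counts of ACTA2, MYH11 and LMOD1 (log axes) against the percentage of reads in haemoglobin rows (log axis), 1 point per library, coloured by group and numbered by replicate. Fused replicate 3 and ISC replicate 2 are low in members and high in haemoglobin, and ISC replicate 3 is low in LMOD1 and MYH11 with 0.429% haemoglobin reads.

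In Fused the direction against Control was not kept with marrow in view, and in ISC it depended on the fit. In a fit of all 9 libraries with the haemoglobin share as a covariate, the Fused change was 2.13 for ACTA2, 2.39 for MYH11 and 0.52 for LMOD1, none of them called. With the 3 haemoglobin-rich libraries left out, Fused is a single library, assumed to vary like the Control libraries it was compared with. The changes were then 0.83, 0.88 and 0.089. In ISC the covariate turned ACTA2 to 0.74 and MYH11 to 0.43, while LMOD1 was at -0.15. Without ISC replicate 2, the haemoglobin-rich library of that group, all 3 members stayed negative in ISC, at -0.19 for ACTA2, -0.50 for MYH11 and -0.73 for LMOD1, with limma adjusted p from 0.605 to 0.896. Every Fused and every ISC library had a higher haemoglobin share than every Control library, so the operated level and marrow content cannot be told apart in either comparison.

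ACTA2 and MYH11 varied together from library to library. Their log2 values correlated with r = 0.969 over the 9 libraries, against r = 0.866 between ACTA2 and LMOD1 and r = 0.889 between LMOD1 and MYH11. These are descriptions over libraries that share groups, depth and marrow content. Per kilobase of exon, ACTA2 was the most abundant of the 3, with 105 to 1005 scaled reads (median 422), followed by MYH11 with 24.3 to 326 (median 143) and LMOD1 with 9.68 to 68.5 (median 45.7). Beta actin (ACTB), made by nearly every cell, had 1181 to 2104.

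The ratio of motor to filament RNA was steadier than either gene. MYH11 per kilobase was 0.340, 0.317 and 0.284 of ACTA2 in Control, 0.324, 0.336 and 0.340 in Fused, and 0.343, 0.207 and 0.184 in ISC. In 7 libraries it kept within 0.284 to 0.343, and ISC replicates 2 and 3 lay lower. The SD of its log2 value over the 9 libraries was 0.339, against 1.30 for MYH11 and 1.16 for ACTA2. ACTA2 over LMOD1 per kilobase moved more, from 6.15 in Control replicate 1 to 19.2 in ISC replicate 3.

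The spread of the members within the operated groups was wide beside that of other genes. The SD of log2 values in ACTA2 was 0.577 in Control, 1.63 in Fused and 1.31 in ISC, where the median gene of 10684 had 0.226, 0.326 and 0.379. In Fused, 98.1% of genes had a smaller SD than ACTA2, 97.9% than MYH11 and 95.7% than LMOD1. In ISC these shares were 92.3%, 95.4% and 87.8%, and in Control 89.6%, 82.6% and 69.6%, so that of ACTA2 differed little between ISC and Control.

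The 4 muscle actins are closely related in sequence. Reads of ACTA1 (skeletal muscle), ACTC1 (heart) and ACTG2 (visceral smooth muscle) may therefore have been assigned to ACTA2 and the reverse. The levels of all 4 are uncertain for this reason. ACTA2 made up 39.1%, 92.4% and 86.5% of the 4 per kilobase in Control replicates 1 to 3, 93.6%, 92.8% and 93.7% in Fused and 81.0%, 91.7% and 90.5% in ISC. Control replicate 1 stood apart through ACTA1, at 56.7%. Its skeletal muscle list summed to a scaled count of 4379, against 51.1 and 536 in Control replicates 2 and 3. In ISC replicates 1 to 3 that list summed to 1096, 56.1 and 47.2. In the 3 Fused libraries it summed to between 57.9 and 91.5, with MYH4 and MB at 0 there. In Control replicate 1 ACTA2 was the lowest of its group, whereas LMOD1 was the highest, and the part of muscle RNA in this was not tested.

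**Figure D3:**
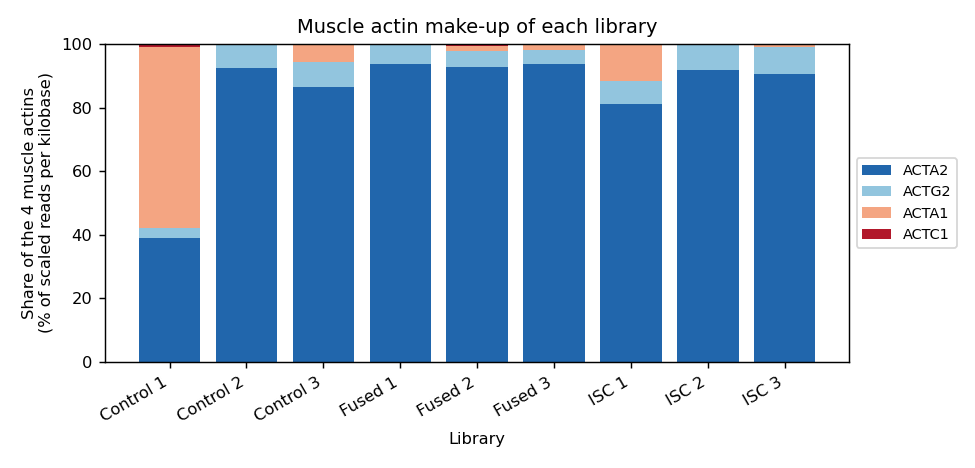
Share of ACTA2, ACTG2, ACTA1 and ACTC1 in their sum (percentage of scaled reads per kilobase) as stacked bars, 1 bar per library. ACTA2 makes 81.0% or more of the bar in every library except Control replicate 1, where ACTA1 makes 56.7%.

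ACTG2 followed ACTA2 closely (r = 0.967 over the 9 libraries). Its scaled counts were 45.3, 53.5 and 108 in Control, 90.6, 23.1 and 6.56 in Fused, and 86.9, 14.3 and 44.1 in ISC, with its lowest value in Fused replicate 3. ACTA2 was 12.004 ± 0.719 times as abundant per kilobase in Control (SD, n = 3), 18.6 ± 3.34 times in Fused and 10.9 ± 0.222 times in ISC. The nonmuscle motors behaved differently. MYH10, nonmuscle myosin heavy chain IIB, rose from 392 ± 28.2 in Control to 835 ± 279 in Fused (SD, n = 3; log2 change 1.03, limma adjusted p = 0.0453), and MYH9, nonmuscle myosin heavy chain IIA, was at 1444, 1691 and 1565 in Control, Fused and ISC. MYH10 was the only called gene among the 11 paralogs tested in Fused against Control, where 3.98% of all genes were called higher, and the call rests on single libraries as set out for the other called genes.

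Among the 30 genes of the smooth muscle contractile list, members included, 29 were tested and 1 was called in Fused against Control (6.58% of all genes). Groups stood apart with Fused lower in 4 of the 29, beside 13.3% of all genes, and with ISC lower than Control in 2, beside 8.73%. The called gene was PDLIM3, which encodes an actin-associated LIM protein of muscle Z-discs; it fell from 168 ± 32.8 in Control to 41.8 ± 36.4 in Fused (SD, n = 3; log2 change -2.30, limma adjusted p = 0.0332), with 92.4 ± 52.1 in ISC. Its scaled counts were 135, 200.4 and 170.5 in Control, 83.6, 24.1 and 17.5 in Fused, and 99.7, 37.0 and 140.4 in ISC. All Fused libraries lay below all Control libraries. With the haemoglobin covariate its change was 0.26.

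Of the 29 tested genes, 21 had a negative value in Fused against Control, beside 7059 of all 14686 genes. Their median was -0.36, where the median of all genes was 0.02. An unadjusted p under 0.05 (limma) was met by 7 of the 29 there, beside 22.8% of all genes. In ISC against Control 21 were negative as well, beside 7140 of all 14348 genes, with a median of -0.54 beside 0.00 for all genes. Limma called 0 of 29 there, beside 0.0488% of all genes (edgeR and DESeq2 also called 0). An unadjusted p under 0.05 was met by 7 of the 29, beside 11.5% of all genes. In ISC against Fused 16 were negative, beside 8571 of all 15404 genes, and the median was -0.09 beside -0.07 for all genes. There 0 were called, beside 0.279% of all genes, with 2 at an unadjusted p under 0.05, beside 10.3%. The medians against Control were not kept with marrow in view: with the haemoglobin covariate they were 0.62 in Fused and 0.33 in ISC, and in the haemoglobin-poor libraries 0.09 and -0.05.

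The other contractile genes are given by the structure they belong to. Of the intermediate filament genes, DES (desmin) had 217, 34.3 and 68.7 in Control, 54.6, 23.1 and 4.37 in Fused, and 54.7, 2.39 and 1.003 in ISC. DES is also made by skeletal muscle and was highest in Control replicate 1, the library rich in muscle RNA, and its changes of -2.07 in Fused and -3.49 in ISC did not pass (limma adjusted p = 0.198 and 0.369). SYNM (synemin) was at 543 ± 83.6 in Control and 278 ± 104 in Fused, without overlap (adjusted p = 0.0681, limma).

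Of the other thin filament genes, TAGLN (transgelin, an actin-binding protein of smooth muscle and myofibroblasts) had 228, 197 and 404 in Control, 406, 173 and 121 in Fused, and 338, 77.6 and 535 in ISC. It was low in ISC replicate 2 and Fused replicate 3 like the members, but ISC replicate 3 had the highest value. ACTA2 was 2.14, 2.82 and 2.56 times as abundant as TAGLN per kilobase in Control, but 0.997 times in Fused replicate 3 and 0.752 times in ISC replicate 3. TPM2, a tropomyosin, was at 669 ± 125 in Control, 442 ± 118 in Fused and 471 ± 159 in ISC (limma adjusted p = 0.152 and 0.498).

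The small heat shock protein gene HSPB6, a relaxation factor of smooth muscle, was at 140.5, 85.0 and 68.4 in Control, Fused and ISC. Its Fused and ISC libraries all lay below Control, at adjusted p of 0.0861 and 0.326 (limma). Of the light chain genes, MYLK, the kinase that starts contraction, was at 515 ± 127 in Control, 399 ± 207 in Fused and 327 ± 173 in ISC, and MYL9, its substrate, at 337 ± 88.6, 374 ± 65.4 and 228 ± 102. Against Control their limma adjusted p ran from 0.486 to 0.713. SMTN (smoothelin) was at 127, 86.7 and 194 in Control, Fused and ISC: the ISC libraries lay above the Fused libraries (limma adjusted p = 0.272), and the authors' deposited table called this gene at a q-value of 0.0692.

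**Figure D4:**
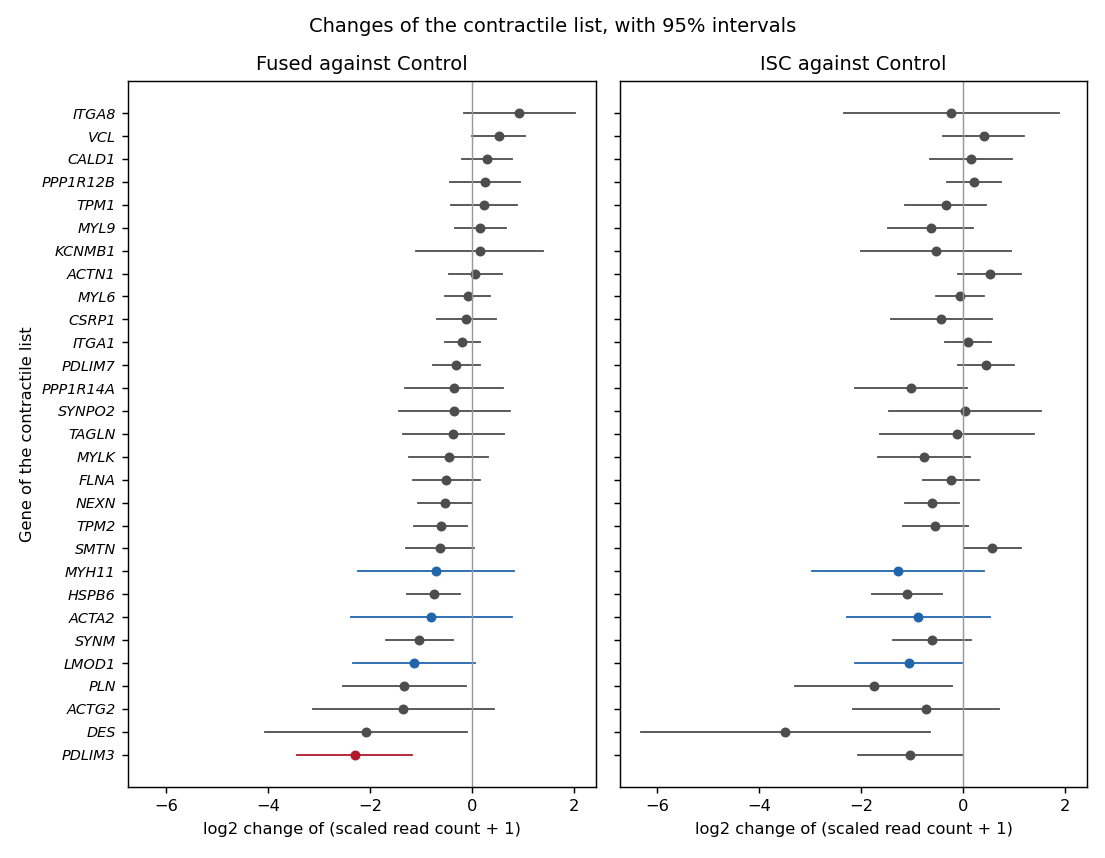
Change in log2(scaled read count + 1) of the 29 tested contractile genes in Fused and in ISC against the same Control libraries, as points with 95% intervals from limma. Blue marks ACTA2, MYH11 and LMOD1, whose intervals are wide, and red marks PDLIM3, called in Fused at -2.30; 21 of 29 points lie below 0 in each panel.

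Pericyte markers did not all move with the contractile genes. Of 18 pericyte genes tested, 4 were called lower in Fused than in Control and 0 higher, where 2.6% of all genes were called lower. The list's median was -0.33, with 12 genes negative and 6 positive. Fused lay wholly below Control in 4 of the 18 and wholly above in 2, beside 1960 and 2344 of all 14686 genes. CSPG4 (the NG2 proteoglycan) fell from 169 ± 59.8 to 51.8 ± 17.0 (SD, n = 3; log2 change -1.68, limma adjusted p = 0.0195). RGS4, a brake on G-protein signalling, fell from 22.8 ± 4.79 to 3.93 ± 0.956 (-2.27, adjusted p = 0.0175 by limma), which is near the value of 3 reads. NDUFA4L2 fell from 63.2 ± 33.02 to 7.03 ± 5.05 (-3.05, adjusted p = 0.0188 by limma). PDGFRB, the receptor that recruits pericytes and is also carried by fibroblasts, fell from 618 ± 100.3 to 351 ± 39.2 (-0.81, adjusted p = 0.0395 by limma).

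These 4 genes were not low in ISC, where CSPG4 was at 229.6 ± 92.5, RGS4 at 21.9 ± 6.33, NDUFA4L2 at 138 ± 127 and PDGFRB at 596 ± 93.2 (SD, n = 3). Against Fused, ISC was higher without overlap for each, but at adjusted p of 0.0798, 0.0906, 0.220 and 0.238 (limma) none was called. The 4 genes were chosen as low in these same Fused libraries, so a higher ISC value was partly built in. Over all 18 pericyte genes, 10 were positive and 8 negative in ISC against Fused, with a median of 0.11. ISC lay wholly above Fused in 5 and wholly below in 2, where 15.4% of all genes separated in either direction. Limma called 0 of the 18 in ISC against Control, where only 0.0488% of all genes were called. An unadjusted p under 0.05 was met by 1 of them, beside 11.5% of all genes, and their median was -0.04. The ISC means of ACTA2, MYH11 and LMOD1 were 519, 711 and 80.0, each below the Fused mean, LMOD1 only slightly. On the log2 scale their changes in ISC against Fused were -0.09, -0.59 and 0.07, all with 95% intervals across 0. A fall of the members below Fused is thus not shown. The ligament fibroblast list, whose cells share PDGFRB, summed to 28871 to 50120.2 in Control, 8532 to 42805 in Fused and 40324 to 124382 in ISC, and its part in the pericyte values was not tested.

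Other pericyte genes tracked the members. MCAM, an adhesion molecule of mural and endothelial cells, was at 265 ± 86.9 in Control, 188 ± 118 in Fused and 127 ± 52.5 in ISC (SD, n = 3), with all ISC libraries below Control but limma adjusted p = 0.346. RGS5, the most used pericyte marker, had 409, 410.5 and 684 in Control, 799, 315 and 335 in Fused, and 429, 224 and 466 in ISC, and was highest in Fused replicate 1 like ACTA2. NOTCH3, the receptor that keeps arterial smooth muscle mature, had its highest values, 309 and 308, in Fused replicate 1 and Control replicate 3, and its lowest, 89.5, in ISC replicate 2.

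The likeness was described by Pearson's r over the 9 libraries with the mean log2 value of the 3 members, for genes with a mean scaled count of 10 or more. Outside the members, 9 of 25 contractile genes had an r of 0.7 or more, with a median of 0.63: ACTG2 0.94, MYLK 0.90, CSRP1 0.89, FLNA 0.89, TPM2 0.85, PPP1R14A 0.84, DES 0.82, KCNMB1 0.81 and TAGLN 0.71. Of 16 pericyte genes, 3 did (MCAM, NOTCH3 and RGS5), with a median of 0.30, and of 15 endothelial genes 0, also with a median of 0.30. PDGFRB (0.07), CSPG4 (0.16) and NDUFA4L2 (0.15) were near 0. Over all 10681 genes, 473 reached 0.7 and the median was 0.02.

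The genes most like the members' mean among 10072 with a symbol were ALG9 (r = 0.956), TUBE1 (0.952), CCDC84 (0.940), ACTG2 (0.936), REP15 (0.935), FAM81A (0.933), AMER1 (0.927), SPEG (0.925), TRIM2 (0.920) and KCNAB1 (0.919). For single members, the gene most like ACTA2 was MYH11 and the reverse. LMOD1 was most like REP15 (0.967), TUBE1 (0.956) and ZMYM3 (0.952). After ACTG2, ACTA2 was most like AMER1 (0.962), and MYH11 most like CCDC84 (0.939) and ARHGAP10 (0.936).

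**Figure D5:**
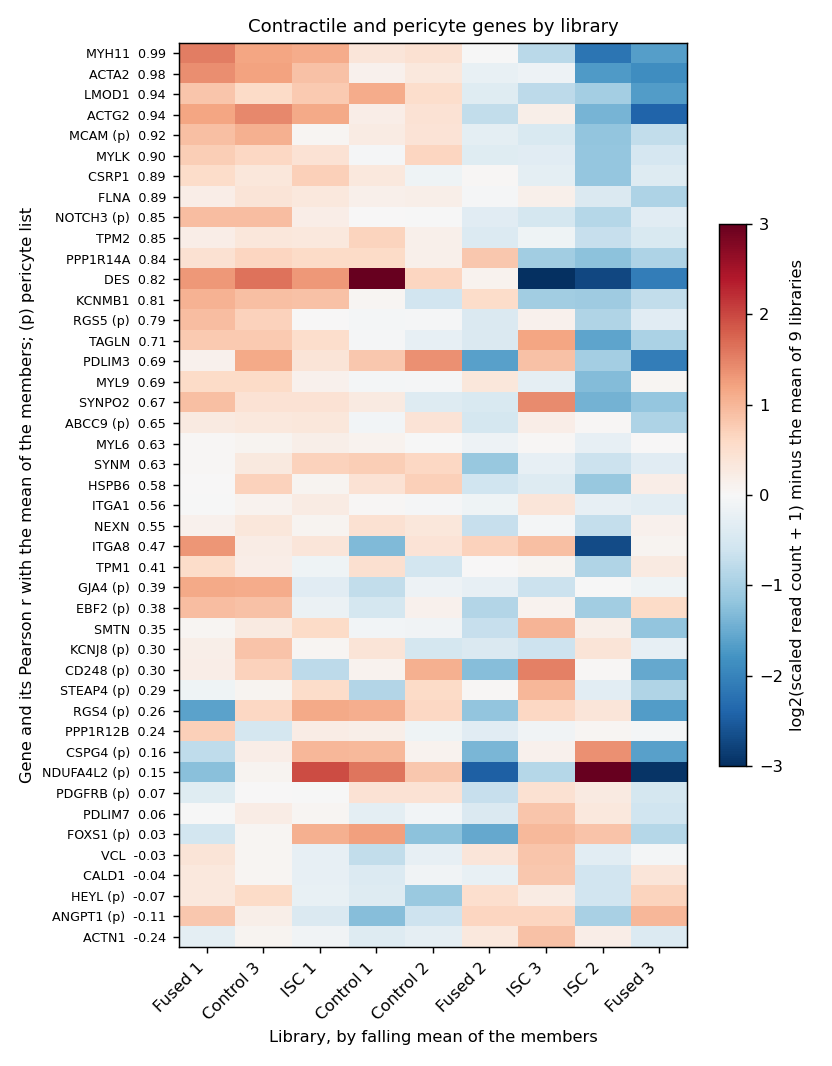
Difference of log2(scaled read count + 1) from the gene's mean over 9 libraries (colour, drawn up to 3 either way) for contractile and pericyte genes, marked (p), with a mean of 10 or more. Genes are ordered by r with the members' mean, which for the members includes themselves, and libraries by falling members' mean. MCAM, MYLK and NOTCH3 follow the members from red to blue, and PDGFRB and CSPG4 do not.

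Vessel lining genes did not follow the members closely from library to library, though most of them were negative in ISC. All 15 endothelial genes were above 0 in every library, and their mean log2 value was 6.37, 6.56 and 7.40 in Control, 7.36, 6.44 and 7.07 in Fused, and 6.49, 6.15 and 6.65 in ISC. Against Control limma called 0 of the 15 in either comparison, beside 6.58% of all genes in Fused and 0.0488% in ISC. An unadjusted p under 0.05 (limma) was met by 1 and 0 of them, beside 22.8% and 11.5% of all genes. Their medians were 0.27 in Fused and -0.42 in ISC. Negative values were held by 4 of the 15 in Fused, beside 7059 of all 14686 genes, and by 13 in ISC, beside 7140 of 14348. In ISC against Fused 13 were negative, beside 8571 of all 15404 genes, with a median of -0.65 beside -0.07 for all genes. Limma called 0 of the 15 there, beside 0.279% of all genes. There 5 of the 15 had an unadjusted p under 0.05 (limma), beside 10.3% of all genes. Fused replicate 3, the lowest library for LMOD1 and ACTA2, had an endothelial mean of 7.07, above that of Control replicates 1 and 2.

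Set against the endothelial mean of the same library, ACTA2 lay 2.76, 2.75 and 2.81 log2 units above it in Control, a spread of only 0.0339 (SD, n = 3). In Fused the distance was 3.03, 2.33 and 0.06, and in ISC 3.39, 1.14 and 2.20. MYH11 gave 3.48, 3.38 and 3.28 in Control, 3.68, 3.04 and 0.78 in Fused, and 4.12, 1.149 and 2.04 in ISC. Replicate 1 of both operated groups was above Control and the other operated libraries were below it.

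LMOD1 gave 1.17, 0.40 and -0.40 in Control, -0.10, -0.36 and -2.30 in Fused, and 0.74, -0.73 and -1.002 in ISC, so its groups overlapped too. The mean differences were -0.97 for ACTA2, -0.88 for MYH11 and -1.31 for LMOD1 in Fused against Control, with exact two-sided permutation p of 0.4, 0.5 and 0.3. With ligament fibroblast genes as the reference these differences turned positive, at 0.45, 0.54 and 0.11. In ISC against Control they were -0.53, -0.94 and -0.72, with exact permutation p of 0.7, 0.4 and 0.4. The smallest p that 3 against 3 libraries allow is 0.1, and over the 9 such tests no adjusted p was under 0.7875.

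Of 15 regulators of the contractile programme, 1 was called in Fused against Control, PRDM6, where 6.58% of all genes were called. MYOCD, the myocardin gene, had scaled counts between 0 and 5.81 and is limited by counting error, and SRF was at 70.2, 65.6 and 64.5 in Control, Fused and ISC. PRDM6, a repressor of smooth muscle genes in mouse, fell from 369 ± 56.3 to 172 ± 55.0 (SD, n = 3; log2 change -1.14, limma adjusted p = 0.0357), with 189.8 ± 135 in ISC. MRTFB, TEAD1 and NOTCH2 were not called there (adjusted p from 0.395 to 0.986, limma). Of the 18 genes for contraction signalling, limma called 0 in Fused against Control, with 7 at an unadjusted p under 0.05 (22.8% of all genes) and a median of 0.01. The contraction kinase genes ROCK1 and ROCK2 had changes of 0.08 and 0.12 there.

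The calls named above rest on few libraries and on the fit. PDLIM3, CSPG4, RGS4, NDUFA4L2, PDGFRB, PRDM6 and MYH10 all lost their call in Fused against Control when replicate 1 or 2 of Control, or replicate 2 or 3 of Fused, was left out (limma adjusted p from 0.053 to 0.174), and all kept it without Fused replicate 1. Without Control replicate 3, CSPG4 and NDUFA4L2 kept theirs. In a single fit of all 9 libraries and in limma without the trend, RGS4 kept its call (adjusted p = 0.047 and 0.038) and the other 6 lost theirs, and with the haemoglobin covariate all 7 did. The 4 pericyte calls thus became 1, 1 and 0. In the haemoglobin-poor libraries, where Fused is a single library and 1 gene of all was called, none of the 7 passed (limma adjusted p from 0.138 to 0.335). Their log2 changes there kept the direction, with RGS4 at -2.39, NDUFA4L2 at -2.09, CSPG4 at -1.19, PDLIM3 at -0.98, PRDM6 at -0.71, PDGFRB at -0.65 and MYH10 at 1.05.

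Of the myofibroblast list, which shares ACTA2 and TAGLN with the contractile genes, the matrix genes FN1 and POSTN were lower than Control in every Fused library, and in ISC replicates 2 and 3 they were above every Control library. FN1 (fibronectin) had scaled counts of 9431, 9925 and 6289.8 in Control, 2917, 1504 and 1099.8 in Fused, and 17002, 30929 and 24653 in ISC. POSTN (periostin) had 6050.4, 5005 and 3069.7 in Control, 1139, 829.8 and 362 in Fused, and 5687, 15629 and 17307 in ISC. In ISC replicate 2, with the highest FN1 value, ACTA2 was at 155, among the 2 lowest libraries. The list's median was -0.54 in Fused and 1.04 in ISC against Control. Of its 10 genes, 6 were negative and 4 positive in Fused, and 2 negative and 8 positive in ISC. Fused lay wholly below Control in 4 of them and wholly above in 1, beside 1960 and 2344 of all 14686 genes. In Fused 3 of 10 genes were called lower, where 2.6% of all genes were. With the haemoglobin covariate, or without Control replicate 1, Control replicate 2 or Fused replicate 3, no gene at all was called there. These 3 calls were thus lost in each of those settings.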

How the data were processed

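RNA of 9 ligamentum flavum libraries was sequenced, from total RNA with a strand-keeping kit per the labels' protocols. The submitters' processing notes name TopHat for alignment, and the series' design text names Cufflinks and the build oryCun2. Their versions, the counting tool and its strand setting were not given in the sources used here. From the authors come 3 deposited tables with the same values for all 9 libraries: a normalized signal per gene, read counts divided by a size factor (TMM, as the tables are named). The deposited tables also give, for each pair of groups, the authors' call, rank score, p-value and q-value.

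In every library 100% of values were whole multiples of the smallest within 1e-06, so whole reads could be computed. For Fused replicate 2 and ISC replicate 3, 1 read is worth 1.0058 and 1.0032, too near 1 to tell this from rounding. Recovered reads per library ranged from 1233155 to 1869209, and 3 reads correspond to 2.40 to 3.58. A nameless row (1 row) was left out. Of 8020 locus rows, 764 received a symbol from a RefSeq table of another assembly (mOryCun1.1), among them PRDM6; MRTFB is listed under its older symbol MKL2. No other row overlaps the span of ACTA2, MYH11 or LMOD1.

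Pairs of groups were compared with limma 3.58.1 under R 4.3.3, with a mean-variance trend and group as the only term, on log2(value + 1). Genes needed 1 or more in 3 or more of a pair's 6 libraries. Calls are at a Benjamini-Hochberg adjusted p under 0.05 over all genes tested. The pseudocount understates changes of low genes. edgeR 4.0.16 and DESeq2 1.42.0 were run on recovered reads as alternatives. Other alternatives were pseudocounts, filters, scalings, a single fit of 9 libraries, a haemoglobin covariate, a replicate block, no trend, haemoglobin-poor libraries only, other reference lists and leaving out each library. The same alternatives for the called list genes and the list medians were added after seeing the data. Levels relative to endothelial genes were compared by exact permutation. The scripts were tested on simulated data.

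The members and the gene lists were chosen with earlier results of these data known. Named genes are the members, contractile and paralog genes; called genes and the 5 highest of the pericyte, regulator and signalling lists; the 3 highest of other lists; and the genes most like the members.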

Additional observations from a re-analysis of the deposited data

How the results depend on the processing

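Reads per library, 3 libraries a group and the unknown link of libraries to animals limit all values; genes under about 3 reads are counting noise. In Fused against Control the count of called genes was 966; it was 25 in a single fit of 9 libraries, 0 with the haemoglobin covariate, 50 without the trend, 1 in the haemoglobin-poor libraries and 0 to 2050 with a library left out. In ISC against Control 7 genes were called; the count was 4 with a pseudocount of 0.1, 14 in the single fit, 0 with the covariate, 3 with the replicate block, 228 with DESeq2, 4 in the haemoglobin-poor libraries and 2 to 38 with a library left out. In ISC against Fused the 43 calls (31 higher, 12 lower) became 79 without a filter, 74 with median centring (61 higher, 13 lower), 214 in the single fit, 156 with the covariate, 88 with the replicate block, 0 without the trend, 321 with DESeq2, 4 in the haemoglobin-poor libraries and 0 to 29 with a library left out. Quantile normalization gave 19 higher and 10 lower, and edgeR 20 higher and 9 lower.

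Contractile calls in Fused against Control (1) were 0 in the single fit, with the covariate, without the trend and in the haemoglobin-poor libraries, 2 with DESeq2 and 0 to 8 with a library left out (8 without Fused replicate 1); in ISC against Fused (0) the covariate gave 1. The covariate reversed the Fused changes of ACTA2 (2.13), LMOD1 (0.52), MYH11 (2.39) and PDLIM3 (0.26), as the haemoglobin-poor libraries did for the members (0.83, 0.089 and 0.88), and the ISC changes of ACTA2 (0.74) and MYH11 (0.43). LMOD1 passed without Fused replicate 1 (-1.75), in a setting where 2050 of all 14016 genes were called. With a library left out, changes ran from -1.60 to 0.023 (ACTA2), -1.75 to -0.50 (LMOD1) and -1.49 to 0.10 (MYH11) in Fused, and from -1.48 to -0.19, -1.64 to -0.73 and -2.16 to -0.50 in ISC. In ISC against Fused they ran from -0.90 to 0.72, -0.57 to 0.68 and -1.46 to 0.21; median centring gave 0.034 for ACTA2, and LMOD1 gave -0.67 with the covariate, -0.014 with DESeq2 and -0.82 in the haemoglobin-poor libraries. Centring moved the median of all genes there from -0.07 to 0.05 and that of the contractile list from -0.09 to 0.03. The cause was not tested.

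Relative to ligament fibroblast genes in place of endothelial genes, Fused minus Control was 0.45 for ACTA2, 0.11 for LMOD1 and 0.54 for MYH11. ISC minus Fused was -2.28 (ACTA2) and -2.13 (LMOD1) on that reference and -0.53 and -0.38 on the pericyte reference. With a library left out, ISC minus Control ran from -1.11 to 0.019 for ACTA2, and ISC minus Fused from -0.44 to 1.05 (ACTA2), -0.10 to 0.9998 (LMOD1) and -0.92 to 0.58 (MYH11).

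Same-numbered libraries did not deviate together in every pair: r of their deviations was -0.035, -0.046 and 0.032 for Control and Fused, 0.135, -0.045 and 0.032 for Control and ISC, and 0.304, 0.303 and -0.096 for Fused and ISC, so the numbers are not taken as pairs. With the replicate block PRDM6, MYH10 and PDGFRB had adjusted p of 0.053, 0.064 and 0.065 (limma), and no member was called.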
